A study of Homo sapiens with 6 samples.

Results

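A set of 81 autosomal genes was low in control replicates 1 and 2 of HEK293 cells and high in control replicate 3 and in all 3 FAM60A-knockout libraries. Levels are in CPM, the count of a gene divided by the total count of its library and multiplied by 1000000. A gene belonged to the set when it had at least 100 counts in each of control 3 and the 3 knockout libraries, and when the lowest CPM of those 4 libraries was at least 8 times the highest CPM of controls 1 and 2, with 0.02 added to every CPM. The set was therefore chosen by the measured values themselves, and the contrast between the 4 high and the 2 low libraries is given below as a description, with no test. The 81 genes were drawn from 57831 autosomal genes in a table of 62754 genes, and made up 0.606% of the 13369 autosomal genes that reached the count minimum.

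Poly(A) RNA was sequenced from 3 control and 3 FAM60A-knockout libraries of HEK293, an adherent line from human embryonic kidney. HEK293T, a derivative with SV40 large T antigen, is also given as the cell line in the labels of all 6 libraries. Puromycin selection gave the knockout as a pool of cells, not a single clone, after transfection with Cas9 and several guide RNAs against 3 regions of FAM60A, and the labels give the control cells no treatment beyond the word control. The labels do not say whether libraries of a group came from separate cultures, so p-values measure the spread between these libraries, which may be technical. FAM60A, whose current symbol is SINHCAF, encodes a subunit of the Sin3/HDAC complex, which removes acetyl groups from histones. The complex is known mostly for repression, and the study also describes activating roles of SIN3A that depend on context.

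SINHCAF itself was at 119, 109 and 137 CPM in controls 1, 2 and 3 and at 64.3, 63.5 and 60.0 CPM in knockout replicates 1, 2 and 3. The groups did not overlap, and control 3 was the highest of the 6 libraries for the targeted gene. For the 81 genes the same library sat with the knockout. The labels describe control 3 exactly as controls 1 and 2, and its origin could not be checked further, so each value of knockout against control depends on taking control 3 as labelled. Control 3 also stood apart from controls 1 and 2 across all genes. Without it, 4965 of the genes tested were called between knockout and control by edgeR's quasi-likelihood test (adjusted p of at most 0.05, with log2 fold changes of 1 or more in size), against 1482 with it. Total counts per library were even, from 88361827 to 93346824.

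The HEK293 identity was checked against 8 markers of the line, all of which were in the table, with 5 at or above 10 CPM in every library. Their summed level was 1745 and 1770 CPM in controls 1 and 2, 975 in control 3 and 731 to 855 in the knockout libraries. KRT8 and VIM carried most of that drop, at 746.7 and 727.4 CPM in control 1 and 400.4 and 309.9 in control 3. KRT18 and LHX1 also fell. NEFL did not follow, at 82.36, 83.22 and 147.8 CPM in controls 1, 2 and 3 and 79.92 to 92.24 in the knockout. PAX2 was also highest in control 3. SALL1 and NEFM separated all controls from the knockout, SALL1 at 24.99 CPM in control 3 and 12.49 to 14.86 in the knockout. The summed level of 9 markers of MDA-MB-231, a breast cancer line also used in the study, was 494 CPM in both controls 1 and 2, 147 in control 3 and 151 to 161 in the knockout libraries, and 4 of the 9 were at or above 10 CPM in every library. ANXA1 carried most of that step, at 304 CPM in control 2, 17.6 in control 3 and 18.7 to 21.0 in the knockout. CAV1, CAV2 and TGFBI also fell. AXL rose instead, at 0.410 and 0.440 CPM in controls 1 and 2, 1.23 in control 3 and 0.793 to 1.03 in the knockout. CD44 was lowest in control 3 and PLAU highest in the knockout. S100A4 was highest in control 3 and lowest in the knockout. Fibroblast markers summed to 24.9 to 30.3 CPM in the controls and 24.3 to 25.1 in the knockout, with opposite changes inside the sum. COL1A1 was at 26.4, 27.1 and 19.9 CPM in controls 1, 2 and 3 and 12.96 to 15.35 in the knockout. LUM was at 2.63, 2.39 and 0.50 and at 7.03 to 8.93 CPM, and DCN was also highest in the knockout. COL3A1 was at 0.485, 0.526 and 3.94 and at 1.70 to 1.81 CPM. All 6 blood markers stayed under 1 CPM in every library. No marker was at 0 in all libraries and none was a member of the set. The marker sums of the HEK293 and MDA-MB-231 lists thus fell from controls 1 and 2 to the other 4 libraries, where the set rose. Not every marker in either list fell in that step, and the part of the marker sums in the result was not tested. In bulk RNA, fewer cells expressing a gene and less RNA per cell cannot be told apart.

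The programmes represented in the set are known from different tissues. Epithelial cells are held together by E-cadherin junctions and protect their surface with membrane-anchored protease inhibitors. Neurons recognise partners through immunoglobulin and leucine-rich-repeat adhesion molecules and release transmitter by calcium-triggered vesicle fusion. Aldehyde dehydrogenases and acyl-CoA enzymes process reactive and short-chain metabolites, and germline and cancer-testis genes are mostly expressed in gonads and tumours.

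Promoter sequences are shown for a few members with many and with few CpG, because CpG-rich and CpG-poor promoters are commonly regulated differently. RefSeq promoters (GRCh38.p14) were matched for 50 of the 81 genes. These were 61.7% of the members, under the 80% set as the least coverage for comparing base composition or motifs with other genes, so that comparison is void. The 250 bases before the start site are printed 5′ to 3′ with each CpG in capitals. The choice was made among protein-coding members that were in a gene list or had one of the 10 largest ratios of the rule. The first pair had the highest ratio of observed to expected CpG among those, SLC8A3, a sodium and calcium exchanger, and CUX2, a homeodomain factor of cortical neurons. The second pair had the lowest, FLG, the filaggrin of the skin barrier, and BDH1, the mitochondrial enzyme of ketone body metabolism.
SLC8A3, chr14:70188952-70189201, minus strand: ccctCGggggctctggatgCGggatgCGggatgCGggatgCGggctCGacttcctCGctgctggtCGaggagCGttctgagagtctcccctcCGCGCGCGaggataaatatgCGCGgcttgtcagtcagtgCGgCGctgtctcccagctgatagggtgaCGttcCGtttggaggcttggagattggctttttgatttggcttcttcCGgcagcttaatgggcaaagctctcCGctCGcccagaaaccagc
CUX2, chr12:111033915-111034164, plus strand: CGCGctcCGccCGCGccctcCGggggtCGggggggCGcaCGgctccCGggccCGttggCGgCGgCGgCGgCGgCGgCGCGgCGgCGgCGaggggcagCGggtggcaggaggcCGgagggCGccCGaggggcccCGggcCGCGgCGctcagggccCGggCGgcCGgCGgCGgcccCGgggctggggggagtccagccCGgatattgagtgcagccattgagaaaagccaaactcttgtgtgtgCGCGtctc
FLG, chr1:152325240-152325489, minus strand: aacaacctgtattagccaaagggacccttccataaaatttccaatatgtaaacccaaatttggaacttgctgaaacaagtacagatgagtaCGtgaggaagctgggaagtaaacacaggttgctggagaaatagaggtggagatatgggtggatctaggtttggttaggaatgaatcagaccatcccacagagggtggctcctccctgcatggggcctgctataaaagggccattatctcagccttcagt
BDH1, chr3:197573344-197573593, minus strand: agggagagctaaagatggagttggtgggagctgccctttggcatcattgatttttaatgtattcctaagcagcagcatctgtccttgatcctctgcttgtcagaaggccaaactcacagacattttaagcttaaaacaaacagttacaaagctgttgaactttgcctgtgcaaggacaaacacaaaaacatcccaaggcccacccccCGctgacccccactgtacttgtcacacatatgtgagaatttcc
The printed stretch held 22 CpG in SLC8A3 and 39 in CUX2, and 1 each in FLG and BDH1.

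All 81 genes together took 0.00662% and 0.00671% of the counts of controls 1 and 2, 0.119% in control 3, and 0.143%, 0.141% and 0.143% in knockout replicates 1, 2 and 3. In 66 of the 81 genes both low controls were under 1 CPM. The median of the ratio that the rule used was 14.3. Just inside the 8-fold threshold lay KCNJ4, an inwardly rectifying potassium channel, at 8.09, TRIM71, an RNA-binding ubiquitin ligase of early development, at 8.13, and ACOT1, a cytosolic acyl-CoA thioesterase, at 8.63. Just outside it lay SULF1 at 7.98, NEUROG2-AS1 at 7.95 and SMIM43 at 7.86.

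**Figure D1:**
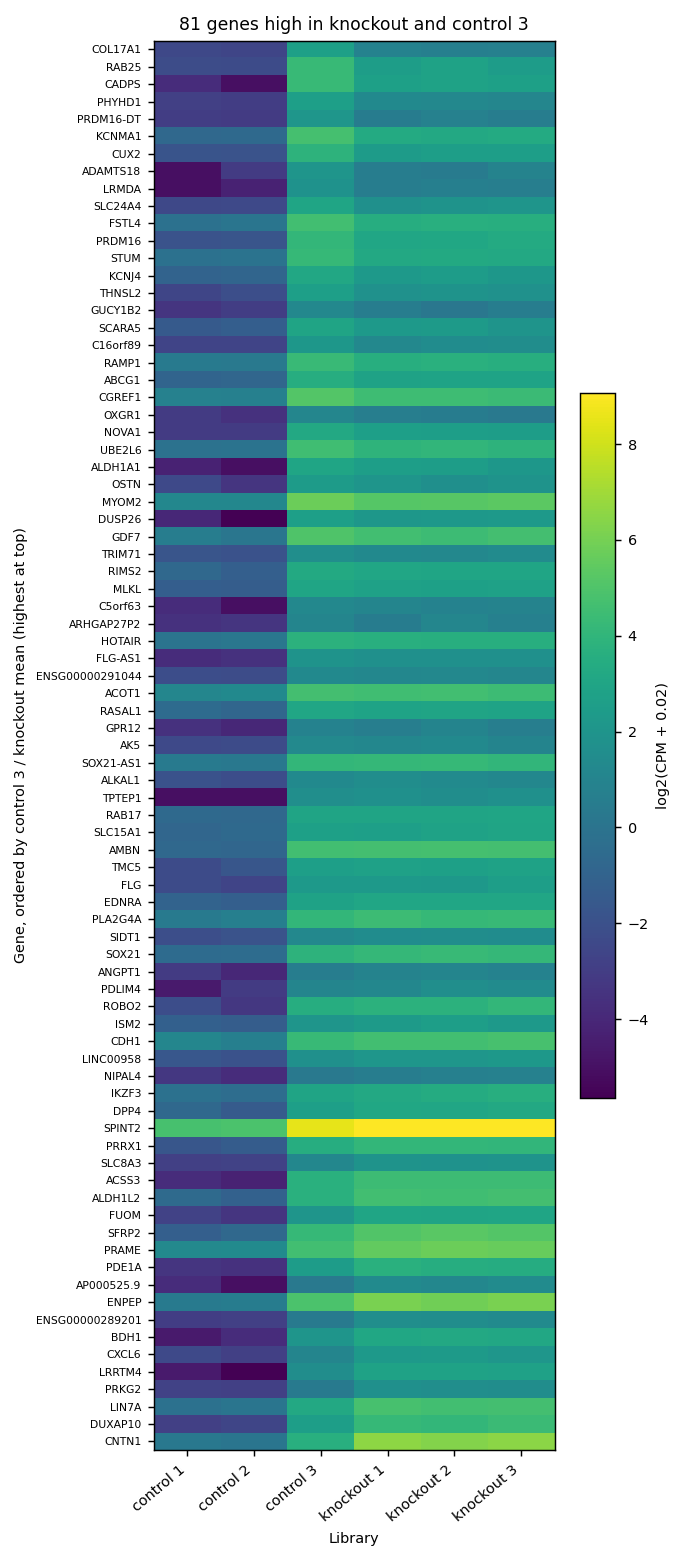
Level of each of the 81 genes (vertical axis, ordered by the ratio of control 3 to the knockout mean, highest at the top) in the 6 libraries (horizontal axis), as log2(CPM + 0.02) in colour. Controls 1 and 2 are darker than the other 4 libraries in each row by the rule of selection, and control 3 shifts from brighter than the knockout at the top (COL17A1) to darker at the bottom (CNTN1).

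Turned to other library patterns, the same 8-fold and 100-count rule gave 68 genes (0.496% of 13713) that were low in knockout and control 3 and high in controls 1 and 2. It gave 36 genes (0.265% of 13589) high in knockout over all 3 controls, and 20 (0.14% of 14309) high in control 3 over the other 5 libraries. A further 7 X-linked genes, which the rule left out, passed its thresholds. Among them were SLC7A3, a cationic amino acid carrier, at 0.0539 and 0.0322 CPM in controls 1 and 2, 22.7 in control 3 and 10.0 to 10.98 in the knockout, and TENM1, a teneurin of neuronal adhesion, at no more than 0.0322, 1.98 and 5.12 to 7.54 CPM. The other X-linked genes were PUDP, STS, APLN, CHRDL1 and MAP7D2.

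Members of the set did not stand at one common level in control 3 and the knockout. Control 3 lay below the range of the 3 knockout libraries for 35 genes, within it for 8 and above it for 38. The median ratio of control 3 to the knockout mean was 1.07, with 40 genes within 1.5-fold, 24 more than 1.5-fold higher in control 3 and 17 more than 1.5-fold lower. The 3 knockout libraries were far closer to one another, with a median coefficient of variation of 6.88% and a highest value of 21.6% for the pseudogene ARHGAP27P2. Across the 81 genes, Spearman's rho between control 3 and the knockout mean was 0.821, a description over genes that share libraries and selection rule and are not independent replicates.

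**Figure D2:**
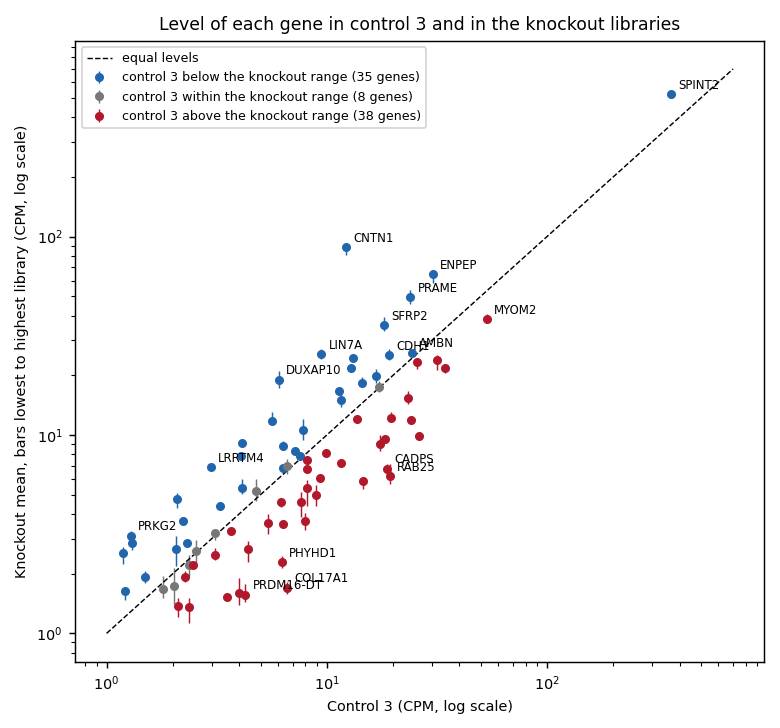
Control 3 (horizontal axis, CPM, log scale) against the mean of the 3 knockout libraries (vertical axis, CPM, log scale) for the 81 genes, with bars from the lowest to the highest knockout library and a dashed line of equal levels. The 35 genes in blue had control 3 below the knockout range, the 38 in red above it and the 8 in grey within it, and CNTN1 lies farthest above the line.

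The genes with the highest ratio of control 3 to knockout began with COL17A1, the transmembrane collagen of hemidesmosomes. It was at 0.162 and 0.150 CPM in controls 1 and 2, 6.599 in control 3 and 1.81, 1.58 and 1.71 in the knockout, a ratio of 3.85. RAB25 (3.13), CADPS (2.78), PHYHD1, a dioxygenase (2.73), and PRDM16-DT, a divergent transcript beside PRDM16 (2.71), came next. The lowest ratios were those of CNTN1 (0.139), DUXAP10 (0.320), LIN7A (0.371), PRKG2 (0.418) and LRRTM4 (0.432).

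Epithelial genes gave 5 members. SPINT2, which encodes a membrane-anchored inhibitor of serine proteases such as matriptase and had the highest level of the set, was at 28.0 and 29.4 CPM in controls 1 and 2, 366 in control 3 and 535, 517 and 519 in the knockout libraries. CDH1, the E-cadherin of adherens junctions, was at 2.14 and 1.58, 19.2, and 24.5, 23.9 and 27.3 CPM in the same order. RAB25, a small GTPase of epithelial recycling endosomes, was at 0.194 and 0.183, 19.4, and 5.77, 7.11 and 5.66 CPM. RAB25 was thus the 1 epithelial member that was higher in control 3 than in every knockout library, while SPINT2 and CDH1 reached their highest values in the knockout. RAB17, a related GTPase of polarised transport, was at 7.59 CPM in control 3 and 7.72 to 8.08 in the knockout against at most 0.625 in the low controls. TMC5, a transmembrane channel-like gene, was at 6.30 and 6.44 to 7.06 against at most 0.290 CPM.

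The lists of genes by programme were assembled with earlier results of these data known and hold members by construction, so a share of members in a list is not evidence about the list. Each list is described beside all 20992 genes in the edgeR fit of 3 knockout against 3 control libraries, of which 3.34% were called higher and 3.72% lower in knockout, with a median log2 fold change of -0.0081. Without control 3 the shares were 13.1% and 9.75%. Counts without that library are given for each list, and include the members of the list, all of which the rule placed among the higher genes. Of the 37 epithelial genes tested, 2 rose (CLDN7, a tight-junction claudin, and ELF3, an epithelial ETS factor) and 2 fell (the plakoglobin gene JUP and the plakophilin gene PKP3), with a median log2 fold change of 0.39. Without control 3, 17 epithelial genes were called higher and 6 lower, with a median of 0.74. CLDN7, ELF3, JUP and PKP3 were outside the set. PKP3 was at 25.6 and 25.1 CPM in controls 1 and 2, 0.161 in control 3 and at most 0.0340 in the knockout, the mirror image of the set. CDH3, the P-cadherin gene, and ESRP1, an epithelial splicing regulator, missed the threshold at 4.29-fold and 4.21-fold by the measure of the rule. The epithelial list therefore held genes that followed the set, genes that followed its mirror image and genes that separated all controls from the knockout.

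Neural adhesion and guidance genes gave 3 members, all lower in control 3 than in every knockout library, with a median ratio of control 3 to knockout of 0.432. CNTN1, the GPI-anchored adhesion molecule contactin 1 (ENSG00000018236, chromosome 12), was at 1.17 and 1.03 CPM in controls 1 and 2, 12.2 in control 3 and 92.8, 80.8 and 90.9 in the knockout. Its values formed 3 separate steps, with control 3 nearer to the low controls than to the knockout in CPM. By fold, with 0.02 added to every CPM, control 3 was nearer to the knockout. It was 10.35 times the higher low control, and the knockout mean was 7.19 times control 3. ROBO2, a receptor for the guidance cue Slit, was at 0.205 and 0.0859, 11.6, and 14.2, 13.8 and 16.9 CPM. LRRTM4, a synaptic leucine-rich-repeat protein, was at 0.0216 and 0 CPM (2 counts and none), 2.97, and 6.99, 6.96 and 6.72 CPM. Of 33 tested genes of that list, 4 rose and 1 fell, with a median log2 fold change of 0.18, and CNTN1 was the only member among the 4. Without control 3 the counts were 16 higher and 4 lower, with a median of 0.63.

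Vesicle release and synapse genes gave 3 members. CADPS, a priming factor for dense-core vesicles, was at 0.0539 and 0.0107 CPM in controls 1 and 2, 18.8 in control 3 and 6.47, 7.15 and 6.64 in the knockout. LIN7A, a scaffold of presynaptic and epithelial junctions, was at 0.873 and 1.03, 9.44, and 27.1, 24.0 and 25.3 CPM, and RIMS2, an active-zone scaffold, at 0.615 and 0.419, 9.93, and 8.28, 8.02 and 7.92 CPM. CADPS and LIN7A thus stood on opposite sides of the knockout range in control 3. Of 44 tested genes on the list, 4 rose and 6 fell, with a median log2 fold change of -0.23. Without control 3 the counts were 9 higher and 6 lower, with a median of 0.10. The 9 include the 3 members, which the rule placed among the higher genes, so no turn of the list is read from them. SYT1, the calcium sensor of transmitter release, rose without following the set, at 0.172 to 0.268 CPM in all 3 controls and 16.1 to 16.9 in the knockout.

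Genes of aldehyde and acyl-CoA metabolism gave 6 members. ACSS3, a mitochondrial acyl-CoA synthetase for short-chain acids (ENSG00000111058, chromosome 12), was at 0.0539 and 0.0322 CPM in controls 1 and 2, 12.9 in control 3 and 21.8, 21.9 and 22.0 in the knockout. ALDH1A1, a retinaldehyde dehydrogenase, was at 0.0324 and 0.0107 (3 counts and 1), 8.12, and 5.96, 5.91 and 4.39 CPM. BDH1 was at 0.0216 and 0.0537, 4.10, and 8.74, 9.52 and 9.08 CPM. All 3 were close to undetected in the low controls. ALDH1L2, the mitochondrial folate dehydrogenase, was at 13.1 CPM in control 3 and 23.7 to 25.4 in the knockout against at most 0.669 in the low controls. FUOM, a fucose mutarotase, was at 4.08 and 7.64 to 8.08 against at most 0.129 CPM. THNSL2, a threonine synthase-like enzyme, was at 6.33 and 3.46 to 3.73 against at most 0.215 CPM. Control 3 was below the knockout range for 4 of the 6 and above it for ALDH1A1 and THNSL2. Of 50 tested genes on the list, 1 rose, the retinaldehyde reductase gene DHRS3, and none fell, with a median log2 fold change of 0.19. Leaving out control 3 moved this to 18 higher and 3 lower, with a median of 0.55.

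**Figure D3:**
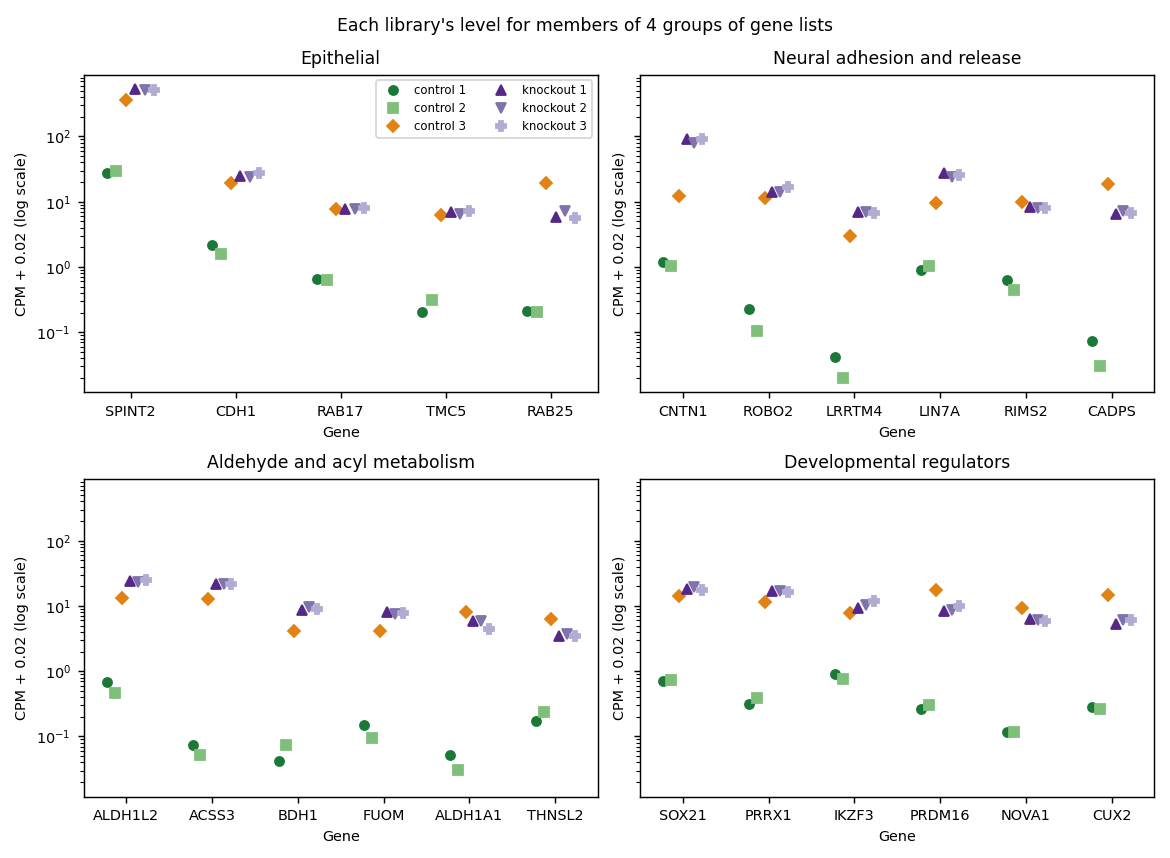
Level of members of 4 groups of gene lists (horizontal axis) in each of the 6 libraries (vertical axis, CPM + 0.02, log scale), with 1 symbol per library. Controls 1 and 2 lie below the other 4 libraries for every gene by the rule of selection, and control 3 lies above the knockout for RAB25 and CADPS and far below it for CNTN1 and LIN7A.

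Developmental regulators gave 6 members, split evenly between 3 below and 3 above the knockout range in control 3. SOX21, a repressor of the SOXB2 class, was at 0.679 and 0.708 CPM in controls 1 and 2, 14.4 in control 3 and 18.0, 19.5 and 17.6 in the knockout. PRRX1, a homeodomain factor of limb and craniofacial mesenchyme, was at 0.291 and 0.376, 11.3, and 16.7, 16.9 and 16.2 CPM, and IKZF3, the lymphoid zinc finger protein Aiolos, at 0.873 and 0.751, 7.78, and 9.43, 10.4 and 12.1 CPM. Those 3 were lower in control 3 than in the knockout. PRDM16, a zinc finger regulator of brown fat and neural stem cells, was at 17.4 CPM in control 3 and 8.32 to 10.0 in the knockout against at most 0.279 in the low controls. CUX2 was at 14.6 and 5.36 to 6.11 against at most 0.259 CPM, and the neuronal splicing factor gene NOVA1 at 9.28 and 5.83 to 6.35 against at most 0.0971 CPM. Of 72 tested genes on the list, 1 rose (SOX5) and 7 fell, with a median log2 fold change of 0.12. Without control 3 the counts were 19 higher, the 6 members included, and 8 lower, with a median of 0.16. The rule placed those 6 among the higher genes, so no turn of the list is read. SOX11, a SOXC factor of progenitors, was among the 7 that fell with all 6 libraries, at 141 and 137 CPM in controls 1 and 2, 8.60 in control 3 and 0.0551 to 0.113 in the knockout.

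Secreted growth factors and their modulators gave 5 members. SFRP2, a secreted modulator of Wnt signalling, was at 0.410 and 0.601 CPM in controls 1 and 2, 18.2 in control 3 and 33.3, 39.2 and 34.7 in the knockout, and GDF7, a BMP-family ligand, at 1.47 and 1.095, 31.8, and 24.7, 21.3 and 25.2 CPM. SFRP2 was higher in the knockout and GDF7 in control 3. ISM2, an isthmin, was at 4.12 CPM in control 3 and 5.01 to 5.98 in the knockout, and the musclin gene OSTN at 5.40 and 3.17 to 3.995. The angiopoietin gene ANGPT1 was at 1.79 to 2.07 CPM in the knockout, with a ratio of control 3 to knockout of 0.782, and there were at most 0.442 CPM in the low controls for each of these 3. Of 52 tested genes on the list, 1 rose and 8 fell, with a median log2 fold change of 0.02, and none of the 9 was a member. Without control 3 the counts were 18 higher, the 5 members included, and 11 lower, with a median of 0.41. Again no turn of the list is read from them. BMP2 was among the 8 that fell with all 6 libraries, at 38.4 and 38.7 CPM in controls 1 and 2, 2.53 in control 3 and 1.25 to 1.75 in the knockout.

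Genes of cyclic nucleotide and prostanoid signalling gave 5 members, none of them above the knockout range in control 3. PLA2G4A, the cytosolic phospholipase that frees arachidonic acid, was at 1.28 and 1.61 CPM in controls 1 and 2, 16.7 in control 3 and 21.5, 18.4 and 19.4 in the knockout. PDE1A, a calcium- and calmodulin-dependent phosphodiesterase, was at 0.0755 and 0.0644, 5.61, and 13.0, 11.3 and 11.2 CPM. EDNRA, an endothelin receptor, was at 0.485 and 0.419, 7.17, and 8.34, 8.22 and 8.34 CPM. PRKG2, a cGMP-dependent kinase, was at 1.29 CPM in control 3 and 2.997 to 3.28 in the knockout, and the orphan receptor gene GPR12 at 1.81 and 1.52 to 1.94, with at most 0.129 CPM in the low controls for both. Of 43 tested genes on the list, 5 rose and 3 fell, with a median log2 fold change of 0.30, against 13 higher and 6 lower of 44 with a median of 0.47 without control 3. The prostaglandin receptor gene PTGFR, among the 5 that rose, was at no more than 0.0108 CPM in controls 1 and 2, 0.568 in control 3 and 7.50 to 9.11 in the knockout.

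Cytokine and innate immunity genes gave 3 members. The neutrophil chemokine gene CXCL6 was at 0.173 and 0.118 CPM in controls 1 and 2, 2.08 in control 3 and 4.87, 5.07 and 4.26 in the knockout, MLKL, the effector of necroptosis, at 0.399 and 0.386, 8.12, and 6.89, 6.66 and 6.74 CPM, and UBE2L6, the ISG15-conjugating enzyme, at 0.906 and 0.934, 23.4, and 15.1, 16.6 and 14.4 CPM. Only CXCL6 of the 3 was lower in control 3 than in the knockout. Of 51 tested genes on the list, 12 rose and 3 fell, with a median log2 fold change of 0.71, and none of these 15 was a member. Without control 3, 26 were called higher and 8 lower of 53, with a median of 0.98. CXCL1, another neutrophil chemokine gene, was at 0.981 and 1.52 CPM in controls 1 and 2, 0.311 in control 3 and 23.4 to 26.7 in the knockout, so that control 3 sat with the other controls. TNF showed the same order, at 0.410 and 0.472, 0.0536, and 6.37 to 6.69 CPM.

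Surface peptidases and ADAMTS enzymes gave 3 members. ENPEP, the aminopeptidase that trims angiotensin, was at 1.24 and 1.44 CPM in controls 1 and 2, 30.4 in control 3 and 67.9, 58.3 and 67.4 in the knockout. DPP4, the dipeptidyl peptidase that inactivates incretins, was at 0.615 and 0.354, 6.31, and 8.69, 8.41 and 9.35 CPM, and ADAMTS18, a secreted metalloprotease, at 0.0108 and 0.0966, 3.99, and 1.49, 1.39 and 1.90 CPM. ADAMTS18 was higher in control 3 and the other two in the knockout. Of 34 tested genes on the list none rose by edgeR's quasi-likelihood test and 5 fell, with a median log2 fold change of 0.10. The fit without control 3 called 10 higher, the 3 members included, and 8 lower of 36, with a median of 0.14. The rule placed the 3 members among the higher genes, so no turn of the list is read.

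Skin barrier and enamel genes gave 3 members. AMBN, the enamel matrix protein ameloblastin, was at 0.615 and 0.547 CPM in controls 1 and 2, 24.4 in control 3 and 25.5, 26.8 and 25.8 in the knockout, a ratio of control 3 to knockout of 0.938. FLG was at 4.78 CPM in control 3 and 4.63 to 5.99 in the knockout against at most 0.183 in the low controls, and NIPAL4, a magnesium transporter of the epidermis, at 1.21 and 1.47 to 1.72 against at most 0.0863 CPM. Of 11 tested genes on the list 1 rose, the enamel gene FAM83H, and none fell, with a median log2 fold change of 0.23, and without control 3 the counts were 4 and 0, with a median of 0.69.

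Germline and cancer-testis genes gave 2 members, both lower in control 3. PRAME, a cancer-testis antigen, was at 2.41 and 2.65 CPM in controls 1 and 2, 24.0 in control 3 and 45.5, 53.7 and 49.7 in the knockout, and the pseudogene DUXAP10 at 0.119 and 0.150, 6.06, and 18.6, 17.2 and 21.1 CPM. DUXAP10 has near-identical copies, so the split of its reads is uncertain. Ion exchangers gave 2 members, SLC8A3 at 2.23 CPM in control 3 and 3.62 to 3.80 in the knockout against at most 0.129 in the low controls, and SLC24A4, a potassium-dependent sodium and calcium exchanger, at 8.002 and 3.33 to 4.05 against at most 0.172 CPM. The 2 exchangers stood on opposite sides of the knockout range. Of 22 tested germline genes 3 rose and 1 fell (median log2 fold change 0.21), and of 42 tested exchangers and carriers 6 rose and 1 fell (0.32). Without control 3 the germline counts were 8 and 3 (0.33) and the exchanger and carrier counts 17 and 2 (0.60).

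Over all 12 lists, 46 of the 81 genes were in a list and 35 in none. Of the 491 list genes tested, 40 rose and 37 fell in the fit with all 6 libraries, beside 3.34% and 3.72% of all genes. Without control 3, 175 list genes, the 46 members included, were called higher and 65 lower of 503 tested. The shares over all genes in that fit were 13.1% and 9.75%. The rule placed the 46 members among the higher genes, so nothing is read from the change in these counts. Another 9 list genes (ADCY2, GSDMD, SOX11, PKP3, CNTN4, BMP2, NRG1, ADAMTS5 and MMP16) passed the mirrored rule, low in knockout and control 3. Over all autosomal genes at its count minimum, 68 of 13713 (0.496%) passed that rule. The lists hold members by construction, so the 9 are not weighed against the 46. Among the 9, CNTN4 went from 7.70 and 6.90 CPM in controls 1 and 2 to 0 in control 3 and at most 0.0340 in the knockout. Its paralogue CNTN1 did the reverse.

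Among the members in no list, MYOM2, a myomesin of the sarcomere, was the most abundant in CPM, at 2.18 and 2.21 in controls 1 and 2, 53.2 in control 3 and 36.5, 37.5 and 40.9 in the knockout. CGREF1, a secreted EF-hand protein, was at 1.77 and 1.67, 34.4, and 22.2, 22.4 and 20.6 CPM. ACOT1 was at 2.10 and 2.48, 25.7, and 23.7, 24.6 and 21.6 CPM, but has a near-identical neighbour in ACOT2, so its reads are uncertain. All 3 were highest in control 3. DUSP26, a dual-specificity phosphatase of neuronal tissue, was at 0.0431 and 0 CPM in controls 1 and 2, 6.20 in control 3 and 4.33, 4.65 and 4.73 in the knockout, and the noncoding RNA gene TPTEP1 at 1 count in each low control, 3.11 CPM in control 3 and 2.96 to 3.33 in the knockout.

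The remaining members were named after their values were seen. HOTAIR, the long noncoding RNA of the HOXC cluster, was at 0.971 and 1.13 CPM in controls 1 and 2, 13.8 in control 3 and 12.4, 11.9 and 11.8 in the knockout. The intestinal peptide transporter gene SLC15A1 was at 6.61 CPM in control 3 and 6.37 to 7.55 in the knockout, and the cholesterol exporter gene ABCG1 at 11.6 and 7.03 to 7.45. Control 3 was above the knockout range for HOTAIR and ABCG1 and within it for SLC15A1. FSTL4, STUM, SCARA5, C16orf89, RASAL1, C5orf63, GUCY1B2, OXGR1 and the noncoding gene ENSG00000291044 were also above the range, AK5, ALKAL1 and ARHGAP27P2 within it, and SIDT1, PDLIM4, LINC00958, AP000525.9 and the noncoding gene ENSG00000289201 below it. Their lowest level among the 4 high libraries ran from 1.13 CPM for GUCY1B2 to 11.5 CPM for FSTL4.

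Levels of different genes were compared per kilobase of annotated exon, as the mean CPM of the 4 high libraries. SPINT2 was first on that scale at 95.2 CPM per kilobase, followed by SFRP2 at 15.7, ACOT1 at 14.2, AMBN at 12.8 and RAMP1, an accessory protein of the calcitonin gene-related peptide receptor, at 12.3. FLG-AS1 was lowest at 0.227.

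The set held 69 protein-coding genes, 85.2% of the 81, beside 84.6% among the 15121 autosomal genes with at least 100 counts in a library. Members lay on 17 chromosomes, with the most, 9, on chromosome 1, and none on chromosomes 6, 7, 15, 18 and 20. No background was set beside these counts or the neighbour pairs below, so nothing is read from them. In 6 pairs, members were neighbours with no more than 2 protein-coding genes between them. LIN7A and ACSS3 on chromosome 12, SOX21 and SOX21-AS1 on chromosome 13, and FLG and FLG-AS1 on chromosome 1 overlap on opposite strands, and PRDM16 and PRDM16-DT on chromosome 1 start 9.56 kb apart on opposite strands. Whether the counting used strand is not given in the sources used here, so reads of the overlapping genes cannot be told apart. The other pairs were LRMDA and KCNMA1 on chromosome 10, whose starts lie 1440 kb apart, and RAB17 and RAMP1 on chromosome 2. KCNMA1, the large-conductance potassium channel, was at 0.604 and 0.633 CPM in controls 1 and 2, 26.4 in control 3 and 10.1, 9.42 and 10.2 in the knockout. RAMP1 was at 1.26 and 1.20, 19.7, and 11.8, 13.1 and 11.7 CPM. LRMDA, a gene of melanocyte differentiation, was at 3.52 CPM in control 3 and 1.47 to 1.60 in the knockout, and SOX21-AS1 at 17.2 and 16.4 to 18.6. Control 3 was above the knockout range for KCNMA1, RAMP1 and LRMDA and within it for SOX21-AS1. LRRFIP1, between RAB17 and RAMP1, did not follow them, at 96.6, 80.4 and 62.2 CPM in controls 1, 2 and 3 and 81.6, 82.0 and 83.9 in the knockout, and HRNR, between FLG and FLG-AS1 in the order of starts, had at most 8 counts in any library.

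The largest ratios of the lowest high library to the highest low library rested on few counts in the low controls and are given with 95% intervals that cover counting error only. The ratio was 239 (102 to 737) for ACSS3, 274 (48.8 to 10870) for TPTEP1, 120 (51.2 to 371) for CADPS and 136 (46.0 to 660) for ALDH1A1. For LRRTM4 it was 138 (37.7 to 1142), for DUSP26 101 (38.9 to 371), for BDH1 76.5 (32.5 to 237) and for PDE1A 74.4 (35.8 to 186). NOVA1 at 60.1 (31.4 to 132) and ROBO2 at 56.5 (36.0 to 94.3) had the narrowest intervals of the 10. The interval of ACSS3 lay above that of ROBO2, while most of the others overlapped, so the order among the 10 genes was largely unresolved by the counts.

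By the groups of the labels, 3 knockout against 3 control libraries, edgeR's quasi-likelihood test with Benjamini-Hochberg adjustment called 1 of the 81 genes, all of which were tested, higher in knockout. Among all genes 3.34% were called higher. The rule used the same libraries but placed control 3 with the knockout, which widens the spread of the controls for members. Nothing is therefore read from either count. The gene called was CNTN1, higher by 4.30 ± 1.04 on the log2 scale (fitted value ± standard error, edgeR adjusted p = 0.039). The call was lost in fits without control 1 (adjusted p = 0.0856), control 2 (0.0895) or any 1 knockout library (0.113 to 0.138). The median log2 fold change of the members was 1.49, from -0.33 for COL17A1 to 4.30, beside -0.0081 for all genes, and 58 members were at 1 or more, as were 6.68% of all genes. The median standard error was 1.21 for members and 0.23 for all genes.

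Other fits of the same contrast moved the count of members called higher, and the share of all genes called higher is given beside each count. DESeq2 called 5 members (4.04% of all genes), limma-voom with quantile normalization 23 (4.01%), and edgeR with the replicate number as a block 0 (0.862%). DESeq2 gave no adjusted p for some members, among them CADPS, ALDH1A1 and COL17A1, and these counted as not called. edgeR without TMM, without a filter and with at least 10 counts in every library each called 1 member (beside 2.78%, 1.65% and 2.76% of all genes). Without control 1 or 2, and without knockout replicate 1, 2 or 3, it called 0 members, beside 1.43%, 1.34%, 0.462%, 0.962% and 0.529% of all genes. Nothing about the members is read from these counts either.

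Without control 3, all 81 were called higher, beside 13.1% of the 21686 genes tested in that fit, of which 9.75% were called lower, and this too restates the rule. Their median log2 fold change became 4.53, from 3.36 to 9.23, and their median standard error 0.19. For ACSS3 the log2 fold change was 2.44 (standard error 1.78) with control 3 and 9.02 (0.18) without it. LRRTM4 went from 2.89 (1.69) to 9.23 (0.29), and CADPS from 0.21 (1.88) to 7.73 (0.25). COL17A1 changed direction, from -0.33 (1.34) to 3.51 (0.23). For BDH1, PDE1A, ROBO2 and TPTEP1 the values with control 3 were 2.81, 2.73, 2.02 and 1.72, and for DUSP26, ALDH1A1 and NOVA1 they ran from 1.05 to 1.24. The edgeR adjusted p of these 10 genes ran from 0.255 for BDH1 to 0.951 for CADPS with all 6 libraries.

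**Figure D4:**
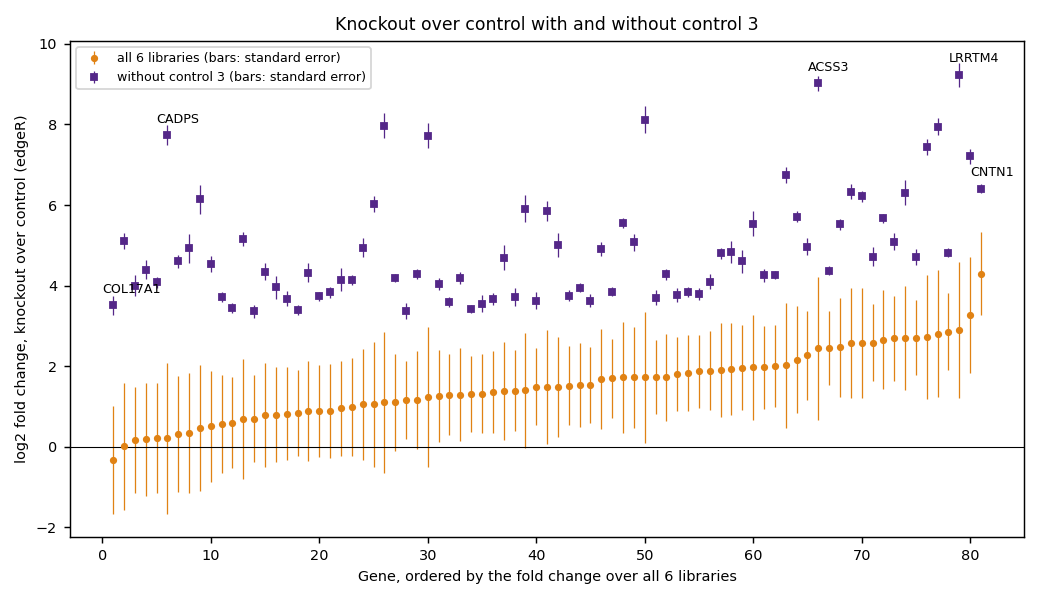
Fitted log2 fold change of knockout over control from edgeR (vertical axis) for the 81 genes in order of the value with all 6 libraries (horizontal axis), with all 6 libraries in orange and without control 3 in purple, and standard errors as bars. With all 6 libraries the values run from -0.33 to 4.30 with wide bars, and without control 3 from 3.36 to 9.23 with narrow bars.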

How the data were processed

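RNA-seq was strand-specific, on poly(A) RNA. The authors deposited raw read counts per Ensembl gene, without normalization. The submitters' processing notes name STAR 2.7.10b, featureCounts 2.0.0 and hg38. The study's methods name Salmon on hg38, and the labels' protocol hg19. Which route made the counts is not resolved, and the annotation release is not given in the sources used here.

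Symbols were matched for 60878 of 62754 genes. CPM was computed from column totals of 88361827 to 93346824. The members and gene lists were chosen with earlier results of these data known. Named genes were members in a list, the 10 largest by ratio and by level, both extremes of the ratio of control 3 to knockout, genes beside the threshold, neighbours and SINHCAF. Exon lengths and neighbours came from GENCODE on GRCh37, and promoters from RefSeq.

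All genes passing filterByExpr (minimum count 10) were fitted with edgeR 4.0.16 in R 4.3.3, using TMM, the two-sided quasi-likelihood F-test and Benjamini-Hochberg adjustment. A call needed an adjusted p of at most 0.05 and a log2 fold change of 1 or more in size. The scripts were tested on simulated data. Intervals on ratios were exact conditional binomial intervals and, since reads carried no molecular identifiers, cover counting error only. Alternatives were DESeq2 1.42.0, limma-voom (limma 3.58.1) with quantile normalization, no TMM, other filters, thresholds and offsets, each library left out, and the replicate number as a block. Leaving control 3 out of the selection rule was added after seeing the data. Figures were drawn with matplotlib 3.10.9 in Python 3.11.15.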

Additional observations from a re-analysis of the deposited data

How the results depend on the processing

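With the rule changed, the number of members, 81, became 230 at 4-fold, 32 at 16-fold and 26 with 0.5 added to every CPM. It became 158 without control 3 (chosen after seeing the data). All 81 were among the 230 and the 158, which was fixed in advance because both rules are looser. With TMM-scaled CPM the number of members was 84 and with a minimum of 10 counts 110. The median ratio of control 3 to knockout, 1.07, became 1.0 with TMM-scaled CPM, 0.937 with 0.5 added, 0.967 with a minimum of 10 counts and 0.934 at 16-fold, so its side of 1 was not stable. Calls over all genes, 1482, ran from 156 to 4965 with 1 library left out, the highest without control 3. Members called, 1 in the full comparison, were 5 with DESeq2 (beside 4.04% of all genes), 23 with limma-voom (4.01%) and 0 to 81 with 1 library left out, the 81 without control 3 and 0 without each of the other 5 libraries. The fit with at least 10 counts in every library tested only some of the members, and DESeq2 gave an adjusted p for only some.

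Whether the replicate numbers pair the libraries is not given in the labels. Same-numbered deviations correlated at 0.0101, 0.0306 and -0.0362, and differently numbered ones at -0.0841 to 0.0771. These values gave no sign of pairing but, with 3 libraries per group, cannot exclude it. A block for replicate number left 334 genes and 0 members called by edgeR, against 1482 and 1 without it, and CNTN1 had an adjusted p of 0.0625. At an unadjusted p under 0.05 in edgeR without the block stood 6 members, 7.41% of the set, beside 34.5% of all genes. The rule sets control 3 apart from controls 1 and 2 and so widens the spread of members, and nothing is read from that share. Over 12 alternatives the adjusted p of CNTN1 ran from 2.54e-20 to 0.138. The log2 fold change of COL17A1, -0.33, reversed to 1.66 with limma-voom, 1.93 with the block and 3.51 without control 3, within -0.9 to 3.51 over the fits with 1 library left out. That of CADPS, 0.21, reversed to -0.39 without control 1 and -0.38 without control 2, within -0.39 to 7.73 over such fits. The cause of these changes was not tested, beyond control 3 being the library that differed. Depth was even across libraries, and limits chiefly the genes with a few counts in controls 1 and 2.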
